A study of Mus musculus with 14 samples.

Results

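The transcripts described here are those of 8 CXC chemokine genes measured in sorted colonic macrophages: *Cxcl1*, *Cxcl2*, *Cxcl3*, *Cxcl5*, *Cxcl12*, *Cxcl13*, *Cxcl16* and *Pf4*. They were chosen by family, as CXC ligands other than those of the receptor CXCR3, and are 8 of the 24982 genes listed in the count table. RNA was sequenced from lamina propria macrophages of the colon and cecum that were sorted as live cells positive for CD45, CD64, CD11b and MHCII and negative for Ly6G, CD103 and Ly6C, 1 library per mouse. All mice were C57BL/6, were 5 weeks old and carried *Cdcs1*, a locus that raises susceptibility to colitis, the control groups included. WT mice carried *Cdcs1* alone (5 libraries, of which 4 were compared). IL10RAKO mice were *Cdcs1*, *Il10ra* -/- (n = 4) and lacked the ligand-binding chain of the IL-10 receptor. DKO mice were *Cdcs1*, *Il10ra* -/-, *Ccr2* -/- (n = 4) and also lacked CCR2, the receptor that monocytes use to leave the bone marrow and enter tissue. A single CCR2KO mouse was *Cdcs1*, *Ccr2* -/-. Both deletions are germline, so that cells other than macrophages lacked the genes too, and *Il10ra* -/- mice of this line develop colitis on their own.

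CXC chemokines are small secreted proteins that guide leukocytes through G protein-coupled receptors. Those with an ELR motif before the first cysteines (CXCL1, CXCL2, CXCL3 and CXCL5 here) act on CXCR2 and draw neutrophils into inflamed tissue, and macrophages make them when NF-κB is activated. The others have different partners: CXCL12 acts on CXCR4 and ACKR3, CXCL13 on CXCR5 of follicular B cells and CXCL16, which is also a membrane-bound scavenger receptor, on CXCR6, while PF4 (CXCL4) is best known from platelet granules and binds glycosaminoglycans. IL-10 is known to restrain inflammatory transcription in intestinal macrophages.

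Each library held between 13085287 and 21216468 counted reads among the 12 libraries compared, 12153000 in WT mouse 11 and 17112375 in CCR2KO mouse 6. Levels are given as CPM (reads scaled to a common library size, with TMM factors for library composition), and 3 reads, taken as the floor, correspond to 0.141 to 0.247 CPM without TMM factors. Because the libraries had no molecular identifiers, this floor covers counting error only. WT mouse 11 was unlike the other WT mice (Spearman 0.86 to 0.879 across genes) and is not in the authors' table of pseudocounts. It was left out of the comparisons. Fold changes with it in the fit are given for the 8 chemokine genes. For other named genes, only the loss of a call with it is stated. *Il10ra* averaged 284 ± 70.1 CPM in WT mice, 7.41 ± 2.67 in IL10RAKO mice and 5.31 ± 2.12 in DKO mice, and *Ccr2* at 593 ± 80.0, 476 ± 128 and 5.67 ± 1.22 CPM in the same order (mean ± SD, n = 4 mice each). The summed level of 10 macrophage markers, *Adgre1*, *Csf1r* and *Fcgr1* among them, was 31221 to 39597 CPM in WT mice, 40815 to 59925 in IL10RAKO mice and 36280 to 47253 in DKO mice. The largest part was *H2-Ab1*, at 14022.5 to 18417.8, 19793.8 to 28657.9 and 15688.9 to 22612.5 CPM in the same order. *Adgre1* was at 641 to 885, 257 to 761 and 228 to 519 CPM. By the test described next, 2 of the 10 were higher than in WT in IL10RAKO, and 1 was higher and 2 lower in DKO. Comparisons between genotypes used the quasi-likelihood test of edgeR over 13136 genes, all 8 chemokine genes included, with Benjamini-Hochberg adjustment and a threshold of 0.05. The p-values set each difference against the spread between mice, estimated over the 3 genotypes together and moderated across genes. The labels give no litter, sex or batch for these mice.

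6 of the 8 genes lie on chromosome 5 of GRCm38 (mm10). A cluster on the plus strand, 147 kb from end to end, holds in order *Cxcl5* (90759360 to 90761624), *Ppbp*, *Pf4* (90772435 to 90773383), *Cxcl3* (90786103 to 90789600), *Cxcl15*, *Cxcl1* (90891241 to 90893115) and *Cxcl2* (90903871 to 90905938). *Cxcl13* (95956951 to 95961068) lies outside this cluster on the same chromosome, *Cxcl12* is on chromosome 6 (117168535 to 117181367, plus strand) and *Cxcl16* on chromosome 11 (70453983 to 70459984, minus strand). Neighbours in the cluster moved in opposite directions: *Pf4* and *Cxcl3*, whose starts are 13.7 kb apart, passed the test against WT in both genotypes, one lower and the other higher, and *Ppbp* passed, lower, in DKO. The 150 bases upstream of the RefSeq start (RefSeq, GRCm38.p6, plus strand) are printed for *Pf4* and *Cxcl3*, and for *Cxcl1* and *Cxcl2*, which did not pass against WT in either genotype. Capitals mark the run of letters that matches the NF-κB consensus.
Cxcl1, chr5:90891095-90891244: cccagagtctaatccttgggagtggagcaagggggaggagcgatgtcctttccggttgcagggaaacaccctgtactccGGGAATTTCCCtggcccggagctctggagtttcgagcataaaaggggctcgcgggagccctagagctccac
Cxcl2, chr5:90903749-90903898: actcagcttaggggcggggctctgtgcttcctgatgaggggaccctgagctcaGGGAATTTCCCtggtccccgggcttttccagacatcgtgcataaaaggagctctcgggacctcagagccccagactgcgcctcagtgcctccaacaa
Cxcl3, chr5:90785951-90786100: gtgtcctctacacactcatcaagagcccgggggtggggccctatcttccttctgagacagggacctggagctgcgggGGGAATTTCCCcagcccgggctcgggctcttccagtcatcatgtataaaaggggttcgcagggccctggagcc
Pf4, chr5:90772285-90772434: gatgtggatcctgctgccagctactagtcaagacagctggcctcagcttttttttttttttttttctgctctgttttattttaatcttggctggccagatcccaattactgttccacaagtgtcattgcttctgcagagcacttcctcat

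*Cxcl1*, *Cxcl2* and *Cxcl3* held the same 11 letters, GGGAATTTCCC, at -71 to -61, -97 to -87 and -73 to -63 from the start. Within this run the 10-base NF-κB consensus was matched on each strand, the sites on the 2 strands being shifted by 1 base. The consensus, searched on both strands, was found in 782 of 32851 windows of this length (2.38%), and the exact run, on either strand, in 10 of them (0.0304%). The windows of *Pf4*, *Cxcl12* and *Cxcl13* held no match. The letters TATAAA, found in 7.57% of the windows, stood at -30 to -25 in *Cxcl3* and at -46 to -41 in *Cxcl13*. Promoters were matched for 6 of the 8 genes, without *Cxcl5* and *Cxcl16*. A match describes the letters of a window and is not evidence of binding.

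In IL10RAKO compared to WT macrophages, 4 of the 8 genes passed the test, with *Cxcl3* and *Cxcl16* higher and *Pf4* and *Cxcl12* lower, while 15.8% of all tested genes passed (8.7% higher and 7.1% lower). In DKO compared to WT macrophages 4 of the 8 passed, the same genes in the same directions, against 18.5% of all genes (9.23% higher and 9.22% lower). Both comparisons share the 4 WT mice. For each of the 4 genes, no IL10RAKO and no DKO mouse overlapped with a WT mouse, as held for 18.2% and 22.2% of all genes. The median log2 fold change of the 8 genes was 0.97 in IL10RAKO and 0.82 in DKO, against -0.07 and -0.06 for all tested genes. None of the 8 passed between DKO and IL10RAKO, also with DESeq2 and the edgeR exact test, and 0 had an unadjusted p-value under 0.05. In that comparison edgeR called 0.0457% of all genes (6 genes, or 388 at an unadjusted p-value under 0.05).

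**Figure D1:**
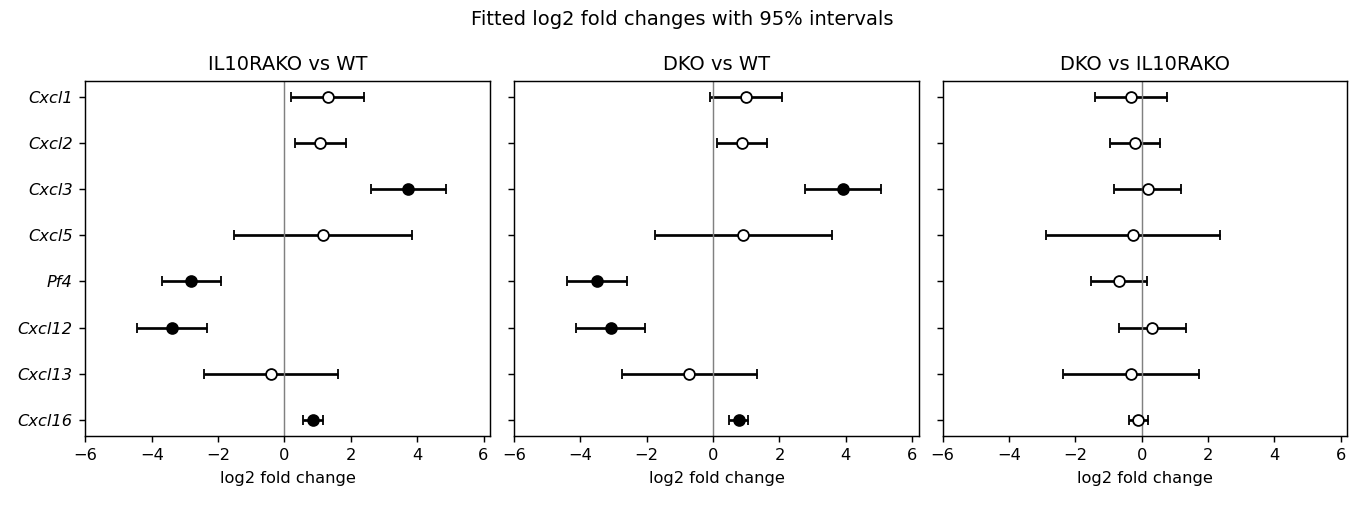
Fitted log2 fold change of the 8 chemokine genes in 3 comparisons (x axis), with 95% confidence intervals from the edgeR fit of 12 libraries, filled where the adjusted p-value was under 0.05. Against WT, *Cxcl3* lies near 3.73 and 3.92 and *Cxcl16* near 0.86 and 0.77, *Pf4* and *Cxcl12* lie between -3.50 and -2.81, and every interval between DKO and IL10RAKO includes 0.

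Of the neutrophil-attracting ligands, *Cxcl3* differed most between genotypes. It had 186, 142, 277 and 210 reads in WT mice 4, 5, 10 and 13, and 528, 3255, 1215 and 4019 reads in IL10RAKO mice 1, 2, 7 and 8. DKO mice 3, 9, 12 and 14 had 2426, 3372, 2778 and 2119 reads. Every IL10RAKO and DKO mouse was above every WT mouse, and the IL10RAKO mice were spread widely, with mouse 1 lowest. *Cxcl3* averaged 10.7 ± 2.60 CPM in WT mice, 142 ± 110 in IL10RAKO mice and 161 ± 49.9 in DKO mice (± SD, 4 mice each). The log2 fold change against WT was 3.73 for IL10RAKO (standard error, SE, 0.529, adjusted p = 2.57e-04 from edgeR) and 3.92 for DKO (SE 0.534, adjusted p = 1.59e-04), that is 13.3-fold and 15.1-fold. CCR2KO mouse 6 had 209 reads (10.3 CPM), within the WT range, and WT mouse 11 had none. With WT mouse 11 added, the log2 fold changes were 4.05 and 4.23 (adjusted p = 0.00379 and 0.00255 from edgeR).

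*Cxcl2*, the most abundant of the 8 genes per kilobase in every genotype, had 18161, 26261, 52452 and 42912 reads in WT mice 4, 5, 10 and 13. IL10RAKO mice 1, 2, 7 and 8 had 24965, 82550, 82937 and 69550 reads. DKO mice 3, 9, 12 and 14 had 45855, 72634, 47849 and 64236 reads. The groups overlapped, since IL10RAKO mouse 1 lay within the WT range and the other 3 IL10RAKO mice lay above it. Levels were 1859 ± 853 CPM in WT mice, 3917 ± 1504 in IL10RAKO mice and 3398 ± 829 in DKO mice (± SD, 4 mice each). The log2 fold change of 1.07 in IL10RAKO did not pass (95% confidence interval 0.31 to 1.84, adjusted p = 0.0563 from edgeR), nor did that of 0.87 in DKO (0.11 to 1.63, adjusted p = 0.108). The first of these was on the other side of the threshold in 6 of 22 alternatives, among them DESeq2 (adjusted p = 0.0106) and the fits without IL10RAKO mouse 1 (1.33, adjusted p = 0.0145 from edgeR) or WT mouse 13 (1.36, adjusted p = 0.0294 from edgeR). CCR2KO mouse 6 had 20100 reads (992 CPM) and WT mouse 11 had 26754 (1960.4 CPM), with which the log2 fold changes were 1.06 and 0.86 (adjusted p = 0.0518 and 0.105 from edgeR).

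*Cxcl1*, which acts on the same receptor, followed *Cxcl2* from mouse to mouse. WT mice 4, 5, 10 and 13 had 1082, 1352, 3464 and 4128 reads. IL10RAKO mice 1, 2, 7 and 8 had 1266, 7185, 7184 and 6934 reads, and DKO mice 3, 9, 12 and 14 had 4068, 6430, 2708 and 5517. As for *Cxcl2*, IL10RAKO mouse 1 lay among the WT mice and apart from the others of its genotype. *Cxcl1* averaged 137 ± 99.4 CPM in WT mice, 339 ± 173 in IL10RAKO mice and 272 ± 92.0 in DKO mice (± SD, 4 mice each). The log2 fold changes of 1.31 (95% confidence interval 0.21 to 2.40, adjusted p = 0.104 from edgeR) and 0.99 (-0.10 to 2.07, adjusted p = 0.204) did not pass. Leaving out 1 mouse took the first past the threshold, without IL10RAKO mouse 1 (1.63, adjusted p = 0.0284 from edgeR) or without WT mouse 13 (1.89, adjusted p = 0.0248), and without WT mouse 13 the second passed as well (1.58, adjusted p = 0.0484). CCR2KO mouse 6 had 1474 reads (72.8 CPM) and WT mouse 11 had 1035 (75.8 CPM), with which the log2 fold changes were 1.44 and 1.12 (adjusted p = 0.0749 and 0.153 from edgeR).

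*Cxcl5*, made mainly by epithelial cells and a CXCR2 ligand as well, was close to absent. It had 22 reads in WT mouse 10 and 0 in the other WT mice, WT mouse 11 included, 5 to 13 reads in IL10RAKO mice, 1 to 18 in DKO mice and 0 in CCR2KO mouse 6. The groups overlapped only through WT mouse 10, which also had the highest summed level of 8 epithelial markers among the 4 WT mice compared (1330 CPM, against 51.8 CPM in the lowest). WT mouse 11, without *Cxcl5* reads, had a higher epithelial sum still (3532 CPM). The part of epithelial RNA in this value was not tested. The log2 fold change was 1.16 in IL10RAKO (95% confidence interval -1.51 to 3.83, adjusted p = 0.585 from edgeR) and 0.91 in DKO (-1.76 to 3.58, adjusted p = 0.671). At this depth no difference was detectable with all 4 WT mice. With WT mouse 11 added the log2 fold changes were 1.47 and 1.21 (adjusted p = 0.529 and 0.61 from edgeR). Without WT mouse 10 the WT group was at 0 and both differences passed (adjusted p = 0.0227 and 0.0248 from edgeR).

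**Figure D2:**
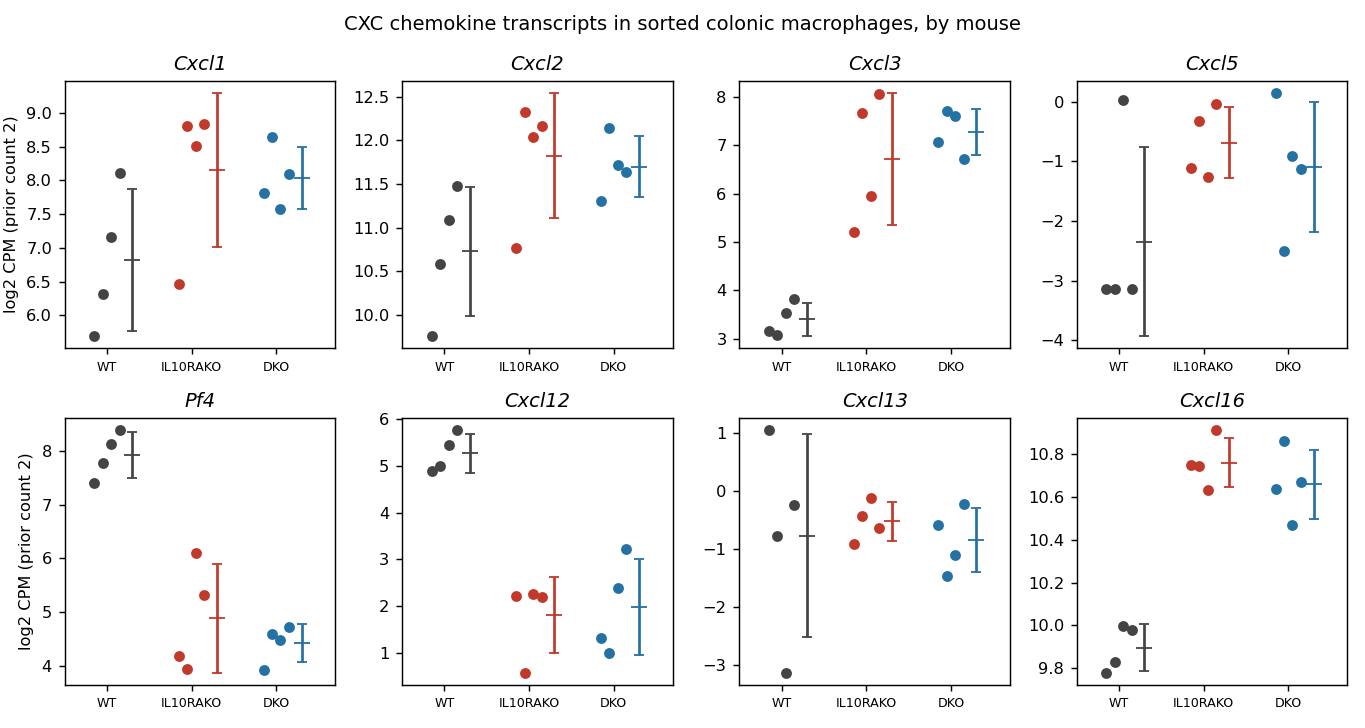
Level of each chemokine gene in each mouse (log2 CPM with a prior count of 2, 1 panel per gene with its own y axis), with the mean ± SD of 4 mice per genotype beside the points. *Cxcl3* and *Cxcl16* are higher and *Pf4* and *Cxcl12* lower in all 8 IL10RAKO and DKO mice than in the WT mice, and the groups overlap for *Cxcl1*, *Cxcl2*, *Cxcl5* and *Cxcl13*.

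*Cxcl2* made up 86.4% to 94.6% of the reads of the 4 ELR ligands in the 12 libraries, so that its level set that of the group. The makeup of the group was compared within each library, which needs no scaling between libraries. This ratio was chosen after the values had been seen and was not tested. WT mice 4, 5, 10 and 13 had 1.02, 0.541, 0.528 and 0.489 *Cxcl3* reads per 100 *Cxcl2* reads. IL10RAKO mice 1, 2, 7 and 8 had 2.11, 3.94, 1.46 and 5.78, and DKO mice 3, 9, 12 and 14 had 5.29, 4.64, 5.81 and 3.30. The genotypes without *Il10ra* did not overlap with WT, and CCR2KO mouse 6 had 1.04. The *Cxcl2* reads per 100 *Cxcl1* reads overlapped between genotypes, with 1040 to 1942 in WT mice, 1003 to 1972 in IL10RAKO mice and 1127 to 1767 in DKO mice. Of the 50-base stretches of *Cxcl2* transcripts, 5.84% occur in *Cxcl3* too, and how multiply aligned reads were counted is not stated, so that reads could be exchanged between these genes. Since *Cxcl3* had so few reads beside *Cxcl2*, an exchange that is small for *Cxcl2* could be large for *Cxcl3*.

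**Figure D3:**
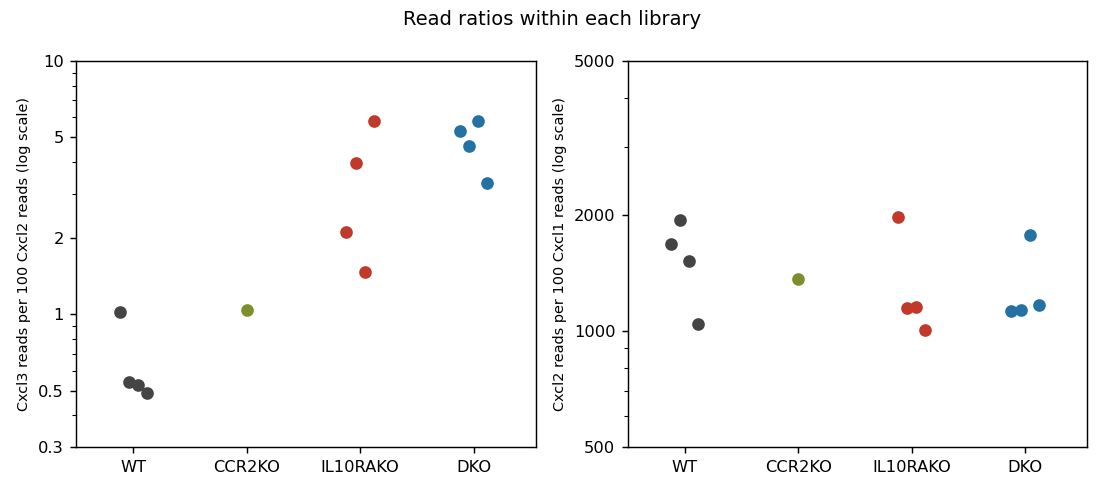
*Cxcl3* reads per 100 *Cxcl2* reads (left) and *Cxcl2* reads per 100 *Cxcl1* reads (right) in each library on log axes, with 1 point per mouse (WT mouse 11 not shown). The left ratio is 0.489 to 1.02 in WT mice, 1.46 to 5.78 in IL10RAKO mice and 3.30 to 5.81 in DKO mice, while the right ratio overlaps between the genotypes.

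*Pf4*, a heparin-binding chemokine, was lower without *Il10ra*. It had 3556, 3708, 6694 and 5021 reads in WT mice 4, 5, 10 and 13. IL10RAKO mice 1, 2, 7 and 8 had 261, 245, 1362 and 604 reads, and DKO mice 3, 9, 12 and 14 had 273, 390, 318 and 532. All 8 mice were far below the WT mice, and IL10RAKO mouse 7 was the highest of them. *Pf4* averaged 250 ± 71.5 CPM in WT mice, 35.5 ± 24.8 in IL10RAKO mice and 22.0 ± 4.89 in DKO mice (± SD, 4 mice each). It fell by 2.81 on the log2 scale in IL10RAKO (SE 0.413, adjusted p = 3.42e-04 from edgeR) and by 3.50 in DKO (0.427, adjusted p = 6.09e-05), that is 7.01-fold and 11.3-fold. CCR2KO mouse 6 (4278 reads, 211 CPM) and WT mouse 11 (2554 reads, 187 CPM) were within the range of the WT mice, and with the latter in the fit *Pf4* still passed (log2 fold changes -2.73 and -3.43, adjusted p = 5.30e-04 and 9.15e-05 from edgeR). The summed level of 7 platelet markers was 5.22 to 10.8 CPM in WT mice, 4.38 to 6.37 in IL10RAKO mice and 2.81 to 5.02 in DKO mice, so that IL10RAKO mice overlapped with WT and DKO mice lay below it. *Gp9* and *Gp1bb*, which platelets require for adhesion, were at 0 in every WT mouse. They had at most 3 and 1 reads in IL10RAKO and DKO mice. *Itga2b*, the other defining marker, had 0 to 8 reads in WT mice, 25 to 48 in IL10RAKO mice and 2 to 48 in DKO mice, and *Gp6* had 0 to 3, 12 to 34 and 14 to 31. *Gp1ba* and *Tubb1* had their highest counts in WT mice. In the same order, *Gp1ba* had 0 to 45, 3 to 9 and 1 to 5 reads. *Tubb1* had 0 to 61, 0 to 8 and 0 to 17. Of the 7 markers 4 were tested, with 2 higher than in WT in each genotype and 1 lower, in DKO. *Ppbp*, another of the 7 markers, made up most of the summed level in WT mice, with 73 to 123 reads there and 1 to 13 in DKO mice. The part of platelet RNA in the *Pf4* result was not tested.

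*Cxcl12*, the ligand of CXCR4 and mostly a product of stromal cells, was also lower. WT mice 4, 5, 10 and 13 had 615, 540, 1045 and 819 reads. IL10RAKO mice 1, 2, 7 and 8 had 65, 22, 92 and 67 reads, and DKO mice 3, 9, 12 and 14 had 43, 30, 73 and 187. No mouse of either genotype came near the WT range, although DKO mouse 14 stood above the other DKO mice. *Cxcl12* averaged 39.7 ± 11.6 CPM in WT mice, 3.74 ± 1.58 in IL10RAKO mice and 4.65 ± 3.38 in DKO mice (± SD, 4 mice each). It fell by 3.40 on the log2 scale in IL10RAKO (SE 0.494, adjusted p = 3.04e-04 from edgeR) and by 3.08 in DKO (0.484, adjusted p = 4.89e-04), that is 10.6-fold and 8.48-fold. CCR2KO mouse 6 had 774 reads (38.2 CPM), within the WT range. WT mouse 11 had 131 (9.60 CPM), far below the other WT mice, and with it in the fit the differences still passed (log2 fold changes -3.17 and -2.85, adjusted p = 0.00307 and 0.00476 from edgeR).

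Fibroblast transcripts were lower in the same genotypes as *Cxcl12*. Of 10 fibroblast markers, 9 were tested and 8 were lower in both genotypes. Their summed level was 315 to 593 CPM in WT mice, 25.03 to 59.6 in IL10RAKO mice and 23.5 to 77.0 in DKO mice. *Col3a1*, a fibrillar collagen, ranged from 161 to 356 CPM in WT and from 6.47 to 25.96 in IL10RAKO mice, and none of the 10 markers was at 0 throughout a genotype. Among WT mice the fibroblast sum and *Cxcl12* were 315 and 29.4 CPM in mouse 4, and 593 and 31.7 in mouse 5. They were 327 and 43.3 in mouse 10, and 584 and 54.5 in mouse 13. WT mouse 11 was lowest in both, at 271 and 9.60. The highest sum (mouse 5) and the highest *Cxcl12* level (mouse 13) were in different mice. Of 6 endothelial markers 5 were tested, and 2 were lower in each genotype. The part of fibroblast or endothelial RNA in the *Cxcl12* result was not tested. In bulk samples such as these, fewer cells that make a transcript and less of it per cell cannot be told apart.

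**Figure D4:**
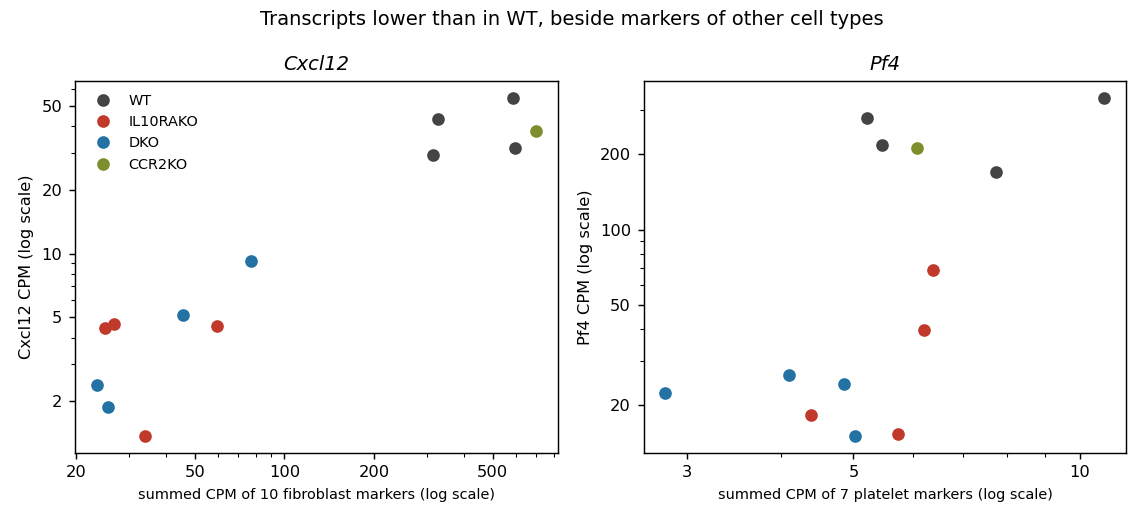
*Cxcl12* beside the summed level of 10 fibroblast markers (left) and *Pf4* beside that of 7 platelet markers (right), as CPM on log axes, with 1 point per mouse (WT mouse 11 not shown). Both *Cxcl12* and the fibroblast markers separate WT from IL10RAKO and DKO mice, whereas the platelet markers of IL10RAKO mice (4.38 to 6.37 CPM) overlap with those of WT mice (5.22 to 10.8 CPM) and those of DKO mice (2.81 to 5.02 CPM) lie below them. *Ppbp* made up most of the platelet sum in WT mice.

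*Cxcl13*, which draws B cells to follicles, was near the floor. It had 41, 8, 0 and 11 reads in WT mice 4, 5, 10 and 13, 6 to 16 in IL10RAKO mice and 4 to 15 in DKO mice. WT mouse 11 had none, while CCR2KO mouse 6 had 65 reads (3.21 CPM), above every WT mouse. The WT mice alone covered the whole range of the other genotypes. The log2 fold change was -0.40 in IL10RAKO (95% confidence interval -2.42 to 1.62, adjusted p = 0.819 from edgeR) and -0.72 in DKO (-2.75 to 1.32, adjusted p = 0.657), and without WT mouse 4 it became 0.61 and 0.29. With WT mouse 11 added it was -0.09 and -0.41 (adjusted p = 0.98 and 0.86 from edgeR). No difference was detectable at this depth.

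*Cxcl16*, the ligand of CXCR6, varied least within genotypes and was higher without *Il10ra*. It had 18400, 15520, 24684 and 15151 reads in WT mice 4, 5, 10 and 13. IL10RAKO mice 1, 2, 7 and 8 had 24736, 27526, 31422 and 29193 reads, and DKO mice 3, 9, 12 and 14 had 28811, 29886, 20172 and 32898. After scaling, WT mice lay at 879 to 1022 CPM, IL10RAKO mice at 1589 to 1928 and DKO mice at 1418 to 1860.4, without overlap with WT. The means were 955 ± 71.5 CPM in WT mice, 1738 ± 141 in IL10RAKO mice and 1624 ± 182 in DKO mice (± SD, 4 mice each). The log2 fold change was 0.86 for IL10RAKO (SE 0.137, adjusted p = 6.01e-04 from edgeR) and 0.77 for DKO (SE 0.137, adjusted p = 0.00131), that is 1.82-fold and 1.70-fold. CCR2KO mouse 6 was at 949 CPM and WT mouse 11 at 1062, and with the latter in the fit *Cxcl16* still passed (0.84 and 0.74, adjusted p = 3.96e-04 and 8.86e-04 from edgeR). Exons of *Cxcl16* overlap those of *Zmynd15* on the opposite strand. Without a stated strand setting, their reads cannot be told apart where they overlap, and *Zmynd15* ranged from 7204 to 13805 reads in WT mice, from 9821 to 13888 in IL10RAKO mice and from 8946 to 13694 in DKO mice.

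Some markers of other myeloid cells moved with the rise of *Cxcl3* and *Cxcl16*. The gate excluded Ly6C+ cells, but the summed level of 4 markers of Ly6C+ monocytes was 120 to 182 CPM in WT mice, 367 to 1045 in IL10RAKO mice and 430.1 to 698 in DKO mice, with 2 of the 4 higher in each genotype. This sum was 382 CPM in CCR2KO mouse 6, whose *Cxcl3* and *Cxcl16* levels were within the WT range. In IL10RAKO and DKO mice most of the sum was *Plac8*, at 224 to 771 and 286 to 445 CPM, against 67.8 to 113 in WT mice. *Ly6c2* was at 5.80 to 7.64 CPM in WT mice, 38.4 to 177 in IL10RAKO mice and 74.9 to 89.0 in DKO mice. Of 6 dendritic cell markers 3 were higher in IL10RAKO and 2 in DKO, and their sum was 216 to 1028 CPM in WT mice, 1429 to 1862 in IL10RAKO mice and 1018 to 1777 in DKO mice, where WT mouse 4 overlapped with the lowest DKO mouse. Most of this sum was *Ccr7*, at 194 to 921 CPM in WT mice, 1288 to 1760 in IL10RAKO mice and 973 to 1706 in DKO mice. None of these 10 markers was at 0 throughout a genotype, and their part in the *Cxcl3* and *Cxcl16* results was not tested.

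Without CCR2, none of the 8 transcripts passed the test relative to IL10RAKO. The log2 fold changes of DKO relative to IL10RAKO ranged from -0.69 for *Pf4* (95% confidence interval -1.54 to 0.15) to 0.32 for *Cxcl12* (-0.69 to 1.33). *Cxcl16* had the narrowest interval (-0.10, from -0.39 to 0.19). Those of *Cxcl1* (-0.32, from -1.40 to 0.76), *Cxcl2* (-0.20, from -0.96 to 0.55) and *Cxcl3* (0.18, from -0.82 to 1.19) were wider. *Cxcl5* (-2.88 to 2.37) and *Cxcl13* (-2.37 to 1.73) had the widest intervals.

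Levels were ordered per kilobase of exon (CPM per kb, on the union of annotated exons), since counts also depend on length. In WT macrophages the order was *Cxcl2* (899 CPM per kb), *Pf4* (346), *Cxcl16* (316), *Cxcl1* (73.2), *Cxcl12* (4.86), *Cxcl3* (3.05), *Cxcl13* (0.687) and *Cxcl5* (0.122). The values of single WT mice overlapped between *Cxcl2* and *Pf4*, *Pf4* and *Cxcl16*, *Cxcl12* and *Cxcl3*, and *Cxcl13* and *Cxcl5*. In IL10RAKO macrophages it was *Cxcl2* (1894), *Cxcl16* (575), *Cxcl1* (181), *Pf4* (49.3), *Cxcl3* (40.5), *Cxcl13* (0.517), *Cxcl12* (0.458) and *Cxcl5* (0.295), with overlap from *Cxcl1* to *Cxcl3* and among the last 3. In DKO macrophages it was *Cxcl2* (1643), *Cxcl16* (537), *Cxcl1* (145), *Cxcl3* (46.0), *Pf4* (30.5), *Cxcl12* (0.569), *Cxcl13* (0.412) and *Cxcl5* (0.245), with overlap between *Cxcl3* and *Pf4* and among the last 3. *Pf4* thus stood next to *Cxcl16* in WT macrophages and next to *Cxcl3* in both other genotypes.

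**Figure D5:**
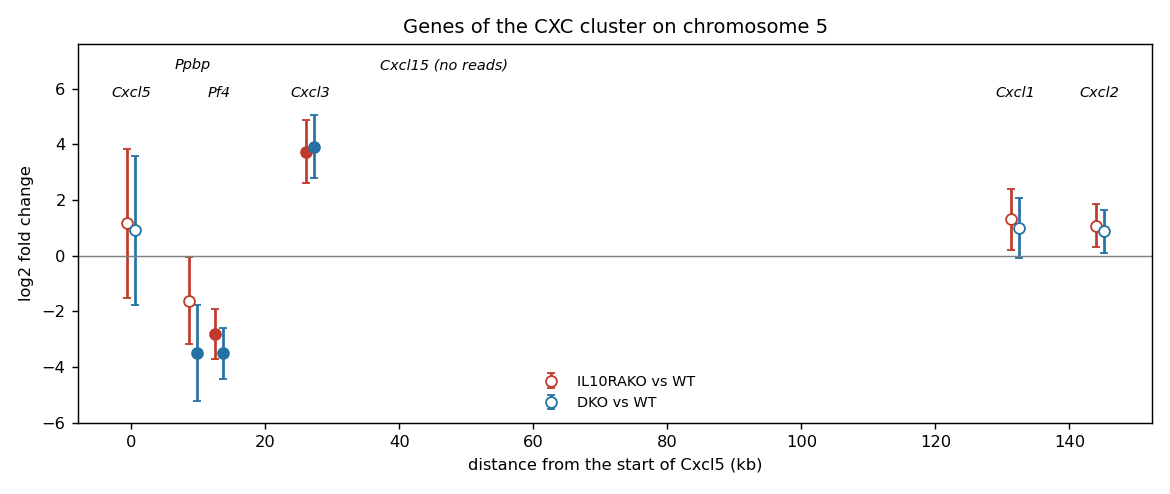
Log2 fold change against WT (y axis, with 95% confidence intervals) of the genes of the chromosome 5 cluster by distance from the start of *Cxcl5* in kb (x axis), filled where the adjusted p-value was under 0.05. *Pf4* at -2.81 and -3.50 lies next to *Cxcl3* at 3.73 and 3.92, and *Cxcl15* had no reads.

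Across the 12 libraries, *Cxcl1* and *Cxcl2* were each other's most similar gene of all genes tested (Pearson r = 0.97 of log2 CPM), and their deviations from the genotype means correlated at 0.96. For *Cxcl3* the genes with the highest r were *Fcrlb* (0.979), *Fth1* (0.977) and *Procr* (0.977), for *Pf4* they were *Serpinb8* (0.989), *Dpysl3* (0.983) and *Cbr2* (0.981), for *Cxcl12* *Maf* (0.966), *Cd209g* (0.965) and *Sparc* (0.962), and for *Cxcl16* *Gbp3* (0.985), *Ccrl2* (0.98) and *Gsdmd* (0.979). After *Cxcl2*, *Cxcl1* was nearest to *Vcam1* (0.929) and *Oas1c* (0.912), and *Cxcl2* was nearest to *Vcam1* (0.958) and *Bcl2a1b* (0.933) after *Cxcl1*. In deviations from the genotype means, the nearest gene was *Ccl9* for *Cxcl1* (0.982), *Hecw2* for *Cxcl2* (0.982), *Zfp617* for *Cxcl3* (0.94), *Igf1* for *Pf4* (0.97), *4921511I17Rik* for *Cxcl12* (0.929) and *Hagh* for *Cxcl16* (0.944). *Cxcl5* and *Cxcl13* were too sparse for such a measure. These values describe 12 libraries that fall into 3 genotypes and share their scaling, and were drawn from 13136 genes.

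Of 4 further CXC ligands, 2 were tested and 1 passed. *Ppbp*, a platelet chemokine next to *Pf4* in the cluster, had 101, 73, 123 and 114 reads in WT mice 4, 5, 10 and 13, 15, 2, 66 and 39 in IL10RAKO mice 1, 2, 7 and 8, and 11, 13, 1 and 8 in DKO mice 3, 9, 12 and 14. Neither genotype overlapped with WT, yet the difference passed in DKO (log2 fold change -3.50, adjusted p = 0.00753 from edgeR) and not in IL10RAKO (-1.61, adjusted p = 0.163). The difference between DKO and IL10RAKO itself did not pass (-1.89, 95% confidence interval -3.56 to -0.23). WT mouse 11 had no *Ppbp* reads, and with it in the fit the DKO call was lost. *Cxcl14*, an epithelial and stromal ligand, had log2 fold changes of -0.87 and -0.67 (adjusted p = 0.172 and 0.286 from edgeR). *Cxcl17* had at most 8 reads in the 12 libraries and 57 in WT mouse 11. *Cxcl15* had 0 reads in all 14 libraries, which allows at most 0.141 to 0.247 CPM per library.

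Of 8 listed genes, receptors of these ligands and *Ccrl2*, 7 were tested. In both IL10RAKO and DKO, 2 (*Ccrl2* and *Cxcr2*) were higher and 2 lower than in WT macrophages, while 15.8% and 18.5% of all tested genes passed. *Ccrl2*, an atypical receptor that binds chemerin and has been described to pair with CXCR2, averaged 847 ± 123 CPM in WT mice, 4006 ± 925 in IL10RAKO mice and 3686 ± 767 in DKO mice (± SD, 4 mice each). Its log2 fold changes were 2.24 and 2.12 (adjusted p = 6.05e-06 and 8.53e-06 from edgeR). *Cxcr2*, the receptor of the ELR ligands, had 4 reads in WT mouse 10 and 0 in the other WT mice, 6 to 19 in IL10RAKO mice and 8 to 40 in DKO mice (adjusted p = 0.0179 and 0.00588 from edgeR), and its fitted fold change depends on the prior count. The IL10RAKO call was lost without IL10RAKO mouse 1 or without mouse 2. The gate excluded Ly6G+ cells, the neutrophils that carry *Cxcr2*, and *Ly6g* had at most 1 read in WT mice, 12 in IL10RAKO mice and 10 in DKO mice, but the summed level of 12 neutrophil markers was 75.2 to 122 CPM in WT mice, 138 to 321 in IL10RAKO mice and 174 to 278 in DKO mice. Most of this sum was *Csf3r*, the G-CSF receptor, at 73.4 to 117 CPM in WT mice, 132 to 229.7 CPM in IL10RAKO mice and 131 to 224 CPM in DKO mice. *Camp*, *Mpo*, *Elane*, *S100a9* and *Stfa2l1* were at 0 in all 4 WT mice. Of the 7 neutrophil markers tested 5 were higher in IL10RAKO and 6 in DKO. *Cxcr2* is itself one of these markers and is counted in both. The part of neutrophil RNA in the *Cxcr2* result was not tested.

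*Ackr1*, a decoy receptor of endothelial and red cells, was at 0 to 13.9 CPM in WT mice, 0 to 0.209 in IL10RAKO mice and 0.125 to 0.703 in DKO mice. Its groups overlapped through WT mouse 5, which had no reads, although the test passed (log2 fold changes -5.66 and -3.65, adjusted p = 0.00854 and 0.0378 from edgeR). Endothelial markers summed to 22.5 to 137 CPM in WT mice, 9.97 to 23.0 in IL10RAKO mice and 17.4 to 28.1 in DKO mice, and their part in this result was not tested. *Ackr3*, which removes CXCL12, had log2 fold changes of -1.87 and -1.97 (adjusted p = 0.0458 and 0.0327 from edgeR), with overlapping groups, and passed in 9 and 15 of 22 alternatives. *Ackr1* passed in 19 of 20 and 12 of 21 alternatives that tested it. With WT mouse 11 in the fit, neither passed in either genotype. *Cxcr4*, the CXCL12 receptor that macrophages carry, averaged 73.3 ± 12.1 CPM in WT mice, 83.8 ± 27.4 in IL10RAKO mice and 72.1 ± 10.7 in DKO mice, with log2 fold changes of 0.19 (95% confidence interval -0.29 to 0.67) and -0.02 (-0.50 to 0.46). *Cxcr5* (-0.84 and -0.23) and *Cxcr6* (1.10 and 1.12), receptors of B cells and T cells, did not pass either, and *Cxcr1* had 1 read in all and was not tested.

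Of 9 proteases that cut or shed CXC ligands 7 were tested, with 2 higher and 1 lower in IL10RAKO and 4 higher and none lower in DKO than in WT. Over all tested genes, 15.8% passed in IL10RAKO and 18.5% in DKO. *Mmp8*, a neutrophil collagenase, averaged 4.15 ± 2.58 CPM in WT mice, 27.3 ± 13.5 in IL10RAKO mice and 36.5 ± 12.7 in DKO mice (log2 fold changes 2.71 and 3.13, adjusted p = 0.00295 and 0.00101 from edgeR). *Mmp9*, a gelatinase, was lower in IL10RAKO (-1.84, adjusted p = 0.00442) and did not pass in DKO (-0.96, adjusted p = 0.0895), and the difference between these genotypes did not pass (0.87, 95% confidence interval 0.07 to 1.68). The IL10RAKO call was lost with WT mouse 11 in the fit. *Dpp4*, which trims CXCL12, was called at 0.82 and 0.78 (adjusted p = 0.0457 and 0.0495 from edgeR) but in only 11 of 22 alternatives in each comparison. *Mmp12*, the macrophage elastase, was higher in DKO (1.96, adjusted p = 0.00551) and had 1.29 in IL10RAKO (adjusted p = 0.0513). *Adam17*, not among the genes fixed by the naming rule, was the other protease called in DKO (0.62, adjusted p = 0.0318), in 16 of 22 alternatives. *Ctsg* and *Elane*, the neutrophil serine proteases, had at most 8 and 3 reads.

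Of 10 genes that control CXC transcripts, 3 were higher and none lower in IL10RAKO, and 3 were higher and 1 lower in DKO than in WT macrophages. The shares over all tested genes were 15.8% in IL10RAKO and 18.5% in DKO. *Nfkbia*, the inhibitor that NF-κB induces, averaged 1814 ± 339 CPM in WT mice, 4698 ± 1091 in IL10RAKO mice and 3390 ± 1019.8 in DKO mice (log2 fold changes 1.37 and 0.90, adjusted p = 0.00101 and 0.0135 from edgeR). *Cebpb*, a transcription factor of inflammatory genes, had 1.24 and 1.28 (adjusted p = 0.00594 and 0.00459). *Nfkbiz*, a co-activator of NF-κB targets, was higher in IL10RAKO (0.89, adjusted p = 0.0131) and had 0.63 in DKO (adjusted p = 0.0614). *Rela*, an NF-κB subunit, had 0.49 in IL10RAKO (adjusted p = 0.0604) and 0.50 in DKO (adjusted p = 0.0497), a call that held in 8 of 22 alternatives. *Atf3*, a repressor of inflammatory genes named here after its value was seen, was the gene that was lower in DKO (-1.09, adjusted p = 0.00116).

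Of 7 genes listed for neutrophil growth and recruitment, cytokines apart from *Tnfaip6*, 6 were higher than in WT in both IL10RAKO and DKO macrophages. None was lower. *Il1a* averaged 131 ± 32.98 CPM in WT mice, 2837 ± 926 in IL10RAKO mice and 2777 ± 851 in DKO mice (log2 fold changes 4.43 and 4.40, adjusted p = 7.87e-07 and 6.05e-07 from edgeR). *Il6* (4.15 and 4.09), *Il1b* (2.14 and 1.79) and *Tnf* (2.33 and 1.79) were higher in both as well. *Csf3*, which encodes the granulocyte growth factor G-CSF, and *Tnfaip6*, which binds chemokines, made up the rest, and *Csf2*, named like these after its value was seen, did not pass (0.00 and -0.41). The median log2 fold change of the 7 was 2.98 in IL10RAKO and 3.32 in DKO, in both cases the value of *Tnfaip6*. Of the 33 tested genes in these 5 lists, 0 passed between DKO and IL10RAKO mice in edgeR, DESeq2 or the exact test, and 3 had an unadjusted p-value under 0.05 (*Ppbp*, *Mmp9* and *Atf3*).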

How the data were processed

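Macrophages were sorted by the authors from colon and cecum, and their RNA was turned into cDNA with SmartSeq v4 and sequenced from both ends, 1 library per mouse. The authors mapped these reads to mm10 using STAR 2.5.1b (per the labels' processing notes, which also list bcl2fastq 2.20 and edgeR 3.34.0) and deposited whole-number counts per gene without normalization, with symbols in capitals, for 24982 genes in 14 libraries. They also deposited edgeR pseudocounts, a score scaled to a common library size, for 13338 genes in 12 libraries. That table served only to identify the 12 libraries the authors compared. Strand setting, annotation and treatment of multiply aligned reads are not given in the sources used here.

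Groups were taken from the labels, and 0 per-sample columns were left out. Differences were tested on the counts with edgeR 4.0.16 in R 4.3.3 (filterByExpr with a minimum count of 10, TMM, glmQLFit with the legacy deviance, glmQLFTest) in 1 fit of 12 libraries, in which 13136 genes were tested and p-values adjusted by the Benjamini-Hochberg method. CPM of the 2 libraries outside the fit were scaled with TMM factors of all 14 libraries brought to the same mean. Standard errors and 95% confidence intervals come from the fit. The script was tested on simulated data. Positions and lengths are those of GENCODE vM21 (GRCm38), in which 24490 of the listed symbols were found, and promoters those of RefSeq. Groups of 24 member and genotype pairs were examined for a mouse far from the others by Dixon's rule, on log2 CPM.

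The chemokine genes and the lists of ligands, receptors, proteases, regulators, cytokines and cell markers were chosen with earlier results of these data known. All ligands and receptors are named, of the other lists up to 4 genes with the smallest adjusted p-value in IL10RAKO compared to WT, and for each chemokine the genes with the highest correlation to it. Genes named outside this rule are marked. Alternatives were DESeq2 1.42.0, the edgeR exact test, RLE size factors, library totals, no filter, 10 reads in every library, only the genotypes compared, WT mouse 11 added, robust dispersion, the bias-adjusted deviance, other prior counts and lengths, and leaving out each mouse in turn.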

Additional observations from a re-analysis of the deposited data

Results flagged for a closer look

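In 3 of 24 groups of 4 mice, 1 mouse stood apart by Dixon's rule, applied to log2 CPM, which chance alone meets in about 1 in 20 groups. *Cxcl1* in IL10RAKO mouse 1 was at 88.1 CPM, against 363 to 458 CPM in the other IL10RAKO mice. On the log2 scale this was a gap of 0.859 of the whole range. *Cxcl5* in WT mouse 10 had 22 reads while the other 3 WT mice had 0, so that the gap was 1.0 of the range. *Cxcl12* in IL10RAKO mouse 2 was at 1.37 CPM, against 4.43 to 4.65 CPM in the others, a gap of 0.958 on the log2 scale. Among the libraries that entered no comparison, *Cxcl13* was at 3.21 CPM (65 reads) in CCR2KO mouse 6, against 0 to 1.96 CPM in the 4 WT mice, and *Cxcl16* was at 1062 CPM in WT mouse 11, against 879 to 1022 CPM. Both are single libraries without a replicate, and their causes were not tested.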

How the results depend on the processing

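*Cxcl3*, *Cxcl16*, *Pf4* and *Cxcl12* kept their direction and passed in 22 of 22 alternatives in both comparisons with WT. Their log2 fold changes ranged from 3.24 to 4.06, 0.54 to 0.91, -3.35 to -2.55 and -3.72 to -3.12 in IL10RAKO and from 3.66 to 4.23, 0.51 to 0.83, -3.77 to -3.33 and -3.67 to -2.82 in DKO. Of the 8 chemokine genes, 4 to 6 passed in IL10RAKO and 4 to 5 in DKO, and 0 in every alternative between DKO and IL10RAKO, DESeq2 and the exact test included. The calls gained concerned *Cxcl2* in IL10RAKO with DESeq2 (1.07), the exact test (1.08), no filter (1.10) and the bias-adjusted deviance (1.08), *Cxcl2* in DKO with DESeq2 (0.88, adjusted p = 0.0424), and *Cxcl1*, *Cxcl2* and *Cxcl5* without single mice, as given above. For *Cxcl5* without WT mouse 10 the fitted values of 6.24 and 5.98 are set against a group at 0 and are no measure of size. Leaving out single mice turned the direction of differences that had not passed: *Cxcl13* to 0.61 in IL10RAKO and 0.29 in DKO without WT mouse 4 (over all mice left out -0.82 to 0.61 and -1.14 to 0.29), and between DKO and IL10RAKO *Cxcl3* to -0.13 and -0.05 (without IL10RAKO mouse 1 or 7, over all mice left out -0.13 to 0.68), *Cxcl5* to 0.04 and 0.10 (without IL10RAKO mouse 8 or DKO mouse 9, over all mice left out -0.97 to 0.10) and *Cxcl12* to -0.27 (without DKO mouse 14, over all mice left out -0.27 to 0.58). The cause was not tested. With library totals in place of TMM, the median of all genes moved from -0.07 to -0.39 in IL10RAKO and from -0.06 to -0.32 in DKO and the share of calls that were higher from 55.1% to 23.8% and from 50.0% to 25.9%, while no chemokine gene changed direction. The calls over all genes ranged from 1485 to 2735 in IL10RAKO and from 1691 to 3008 in DKO, and between DKO and IL10RAKO from 4 to 24 (24 with DESeq2, 22 with the exact test, 10 without IL10RAKO mouse 2). Calls among the receptors dropped from 4 to 2 or 1 in several alternatives, 1 being the count when only the genotypes compared were fitted, and DESeq2 raised those among proteases and regulators in IL10RAKO from 3 to 5 each. Proteases called in DKO dropped from 4 to 2 without WT mouse 10 or without DKO mouse 9, 12 or 14. With the length of the longest transcript, *Cxcl12* in WT was at 7.06 CPM per kb and *Cxcl16* at 354. No paired analysis was possible because the groups hold different mice and the labels pair none of them. Depth limits the statements on *Cxcl5* and *Cxcl13*.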
